A study of Mus musculus with 12 samples.

Results

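Cytosolic ribosomal protein genes encode the protein part of the ribosome. They were taken as the gene columns named Rpl or Rps followed by a number, with an optional letter a, x, y or l, together with Rplp0, Rplp1, Rplp2 and Rpsa and without pseudogene symbols holding -ps. This rule found 84 of 27998 gene columns, 52 for the large (60S) and 32 for the small (40S) subunit. The 84 comprise 77 core genes and 7 paralogs, which are near copies of a core gene (Rpl3l, Rpl6l, Rpl7l1, Rpl10l, Rpl22l1, Rpl39l and Rps27l). Every member had UMIs in the deposited tables, and all 84 passed the filter on low counts in sums over all cells.

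The study profiled c-Kit+ bone marrow cells of mice by single-cell RNA-seq with 10x Genomics 3′ chemistry. It asked how an activating NRas mutation and loss of the histone methyltransferase EZH2 act alone and together during leukemia progression. There were 12 libraries, 1 for each of 4 genotypes at 3 times after pIpC, a double-stranded RNA that switches on the Mx1-Cre recombinase: T1 at 2 weeks, T2 at 2 months and T3 at 4 months. The cell names inside the deposited tables count the time points from T0 to T2, and the labels were followed here. Per the labels, all mice received 5 injections of pIpC at 20 mg/ml at an age of 8 to 12 weeks. The text of the study gives a younger age at injection. WT mice were Mx1-Cre-, E2-KO mice Mx1-Cre+;Ezh2 f/f, G12D mice Mx1-Cre+;NRas G12D+/-, and G12D/E2-KO mice carried the recombinase with both alleles. The recombinase therefore differed between WT and all mutants and cannot be told apart from the mutant alleles. Mx1-Cre acts in every cell that answers interferon, and the number of mice behind a library is not given in the sources used here. The 3 time points served as the replicates of a genotype, and the 4 genotypes as those of a time point. Time point was also a factor in the reported fit. Its p-values therefore rest on the spread between libraries left after genotype and time point, pooled over all genotypes.

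Libraries held 2350 to 3767 cells and 12637000 to 23646000 UMIs (unique molecular identifiers, each marking 1 captured RNA molecule). Ezh2 ranged from 103 to 133 CPM (UMIs of a gene relative to all UMIs of the library, scaled to a common total) in WT, from 27.7 to 34.6 CPM in E2-KO, from 81.7 to 103 CPM for G12D and from 20.7 to 25.3 CPM for G12D/E2-KO, which goes with the labels, although 3′ tags may lie outside the deleted exons. The G12D T1 table shared 2896 of its 5648 cells with the 3044 cells of G12D/E2-KO T1, 1494 of them equal in every gene. The labels do not settle which library these cells came from. G12D/E2-KO T1, nearly all of it these cells, was at 20.7 CPM of Ezh2, and the G12D T1 cells left without them at 86.3 CPM. The same gap stood in each class tested below, so the Ezh2 level of the shared cells goes with G12D/E2-KO. They were counted in G12D/E2-KO T1 only, and nearly all of that library rests on this choice. The fit with cells as deposited holds them in both libraries and thus puts cells with low Ezh2 into G12D T1. It is given beside the counts of calls it changed most. Cells were gated by marker genes into 13 classes (30229 of 32701 cells), and the 7 named below, each with 20 or more cells per library, were tested. Kit, the receptor used for the enrichment, had a median of 123 CPM in gated stem cells and multipotent progenitors (HSC/MPP) but 15.7 CPM in late granulocytes (late GN) and 6.86 CPM in late erythroid cells (late Ery), so the enriched fraction also held mature cells. Xist, transcribed from the inactive X of females, exceeded 100 CPM in WT T3, E2-KO T3 and G12D T3 and in no other library.

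A ribosome joins a small subunit, which decodes mRNA, to a large subunit, which forms the peptide bond and passes the chain through an exit tunnel. The mRNAs of its proteins are among the most abundant of growing cells. They begin with a C followed by a run of pyrimidines, the 5′ TOP motif, by which mTOR signalling controls their translation together. Red cell precursors depend strongly on ribosome supply, and loss of a single copy of RPS19 causes Diamond-Blackfan anaemia in people.

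A pyrimidine run near the annotated start is common among the core genes. RefSeq promoter entries (GRCm38.p6, 250 bases before to 50 bases after the annotated start) were found for 63 of the 84 members. An uninterrupted run of at least 10 C or T whose first base lay within 50 bases of the start was present on the gene's strand in 42 of 57 core genes (73.7%), against 20.1% of 27025 genes in the same table and in 1 of 6 paralogs (16.7%). The ETS motif CCGGAAG, searched on both strands, was found in 40.4% of core genes against 9.08% of all genes, the YY1 motif AAGATGGC in 7.02% against 2.87%, and TATAAA in 8.77% against 14.3%. A match describes letters in this window only. Below are the start regions of 11 members whose change passed the test in late GN or in promonocytes, read 5′ to 3′ on the gene's strand, with the longest C or T run in capitals.
Rpl39 (chrX:37085173-37085202, minus strand): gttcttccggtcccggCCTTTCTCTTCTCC
Rpl36a (chrX:134585674-134585703, plus strand): gctctagCCTCTCTCTTTCCgagctgctag
Rps4x (chrX:102189342-102189371, minus strand): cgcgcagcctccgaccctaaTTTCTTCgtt
Rps18 (chr17:33955643-33955672, minus strand): ttccgCTCTCTCTTCCacaggaggcctaca
Rps28 (chr17:33824559-33824588, minus strand): gaggaTTCCTgggtaccgcgtgcggtctcg
Rpl22 (chr4:152325682-152325711, plus strand): tctgaCTCCTCCCTTTCCCgacagccgact
Rpl22l1 (chr3:28805504-28805533, plus strand): gcccgTTCTCTTCCCacggctgcagctcaa
Rpl6 (chr5:121204521-121204550, plus strand): cgctgccttagTTCTCTTTCCCgtcttgca
Rps7 (chr12:28635907-28635936, minus strand): ccccaCCTCTTTTCTTCCgccacccggata
Rpl7a (chr2:26910788-26910817, plus strand): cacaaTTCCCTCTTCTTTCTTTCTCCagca
Rpl4 (chr9:64173407-64173436, plus strand): gcgtggCCTTCTCCTCTCCCCgtcatggtg
The run measured 21 bases in Rpl7a, 15 in Rpl4, 14 in Rpl39 and Rpl22, and 13 in Rpl36a and Rps7. Relative to the annotated start it began at -39 in Rpl22, -21 in Rps28, -2 in Rps18, 1 in Rpl22l1 and 36 in Rpl39. Whether a run lies at the start of the mRNA was not tested. Rps4x, with 7 bases, and Rps28, with 5 bases, had no run of the required length, so the members called in late GN differed in this feature.

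Ribosomal protein genes took up 26.6% ± 2.05 of all UMIs (SD, n = 12), but the share depended far more on the cell class than on the genotype. Averaged over the 12 libraries, it was highest in megakaryocyte-erythroid progenitors (MEP, 39.1% ± 2.56, SD, n = 12), HSC/MPP (36.5% ± 2.13) and early erythroid cells (EryP/early Ery, 35.8% ± 2.12). Promonocytes (ProMo) were at 30.8% ± 1.69 and granulocyte-macrophage progenitors gated together with early granulocytes (GMP/early GN) at 29.7% ± 2.12. Late Ery cells, filled with haemoglobin mRNA, were at 10.2% ± 1.94. Late GN cells, filled with granule protein mRNA, were lowest at 7.89% ± 1.88. Both mature classes stayed below every library of the other 5 classes, the highest late GN library (G12D/E2-KO T3) reaching 12.3%. The gate used none of these genes, although a class with very abundant lineage mRNA must leave a smaller share to all others.

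**Figure D1:**
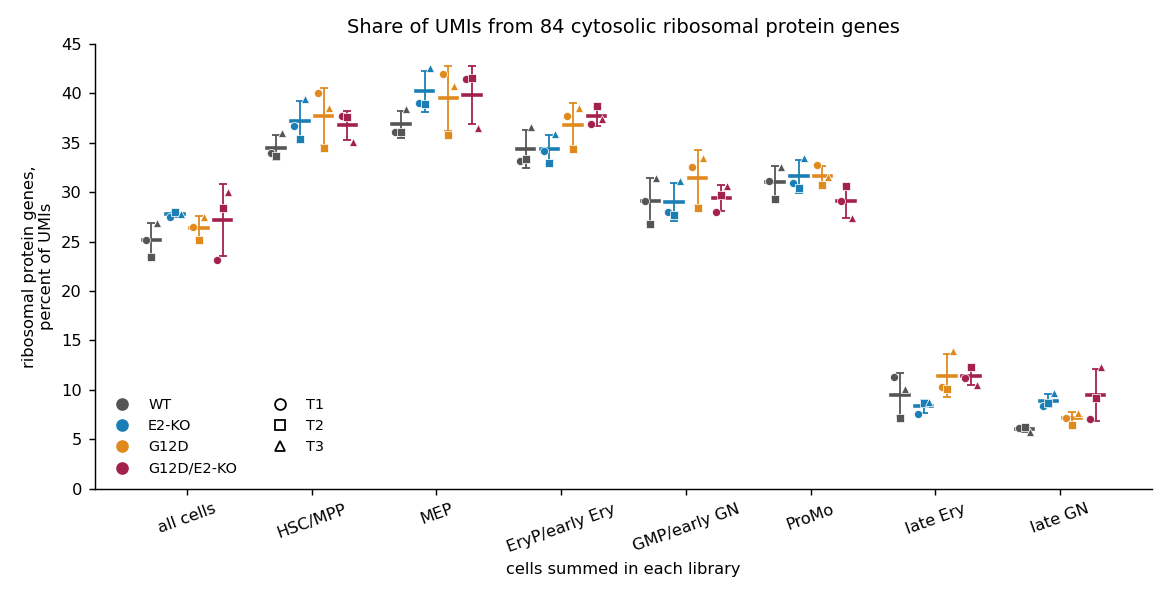
The share of UMIs from the 84 ribosomal protein genes (vertical axis, percent) in all cells and in 7 gated classes (horizontal axis); each point is a library, the bar is the mean and the whisker the SD over the 3 libraries of a genotype. The late GN points of WT lie between 5.73 and 6.23%, below those of every other genotype, while genotypes overlap in most other classes.

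Over all cells the share was 25.2, 23.4 and 26.9% in WT at T1, T2 and T3 (mean 25.2% ± 1.71, SD, n = 3). E2-KO libraries had 27.5, 28.0 and 27.8% (27.7% ± 0.249), G12D libraries 26.5, 25.2 and 27.5% (26.4% ± 1.16), and G12D/E2-KO libraries 23.1, 28.4 and 30.1% (27.2% ± 3.63). Every E2-KO library thus lay above every WT library, by 2.59 percentage points on average, whereas G12D and G12D/E2-KO overlapped WT. With haemoglobin genes and the late GN marker genes left out of the total, E2-KO overlapped WT. E2-KO T1 was then at 30.3% and WT T3 at 31.6%, and the difference was 1.68 percentage points. With class shares held at their mean over the 12 libraries, E2-KO read 26.0, 25.6 and 28.3% against 25.3, 24.5 and 27.2% in WT, so the groups overlapped and the difference was 0.982 percentage points. G12D read 28.5, 25.5 and 28.9%, a mean difference from WT of 1.95 percentage points (1.26 with class shares as observed), and it also overlapped WT. With cells as deposited G12D T1 was at 24.8%, which gave G12D a difference of 0.689 percentage points with class shares as observed. The G12D/E2-KO range from 23.1 to 30.1% narrowed to 26.7, 28.1 and 28.0% in the same way. By time point the share averaged 25.6% ± 1.90 at T1, 26.2% ± 2.34 at T2 and 28.1% ± 1.39 at T3 (SD, n = 4), and these ranges overlapped. No p-value is given for a summed share, since the members were chosen together.

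Gene by gene, no member passed the test in sums over all cells in any of 8 contrasts (edgeR quasi-likelihood test, genotype and time point as factors, Benjamini-Hochberg adjusted p under 0.05 over 12848 genes). This test called 1.59% of all genes for E2-KO against WT, 0.109% for G12D, 5.69% for G12D/E2-KO, 1.36% for G12D/E2-KO against G12D, 0.0934% for G12D/E2-KO against E2-KO and for the interaction, and 0% for T2 or T3 against T1. At an unadjusted p under 0.05 the members numbered 7 for E2-KO (16.1% of all genes), 6 for G12D (11.8%) and 3 for G12D/E2-KO (26.2%) against WT. There were 2 for G12D/E2-KO against G12D (14.8%) and against E2-KO (19.1%), 1 for the interaction (3.59%), 9 for T2 (4.66%) and 9 for T3 (13.1%) against T1. DESeq2 called 0 members for E2-KO (3.53% of all genes), 1 for G12D (1.17%) and 2 for G12D/E2-KO (10.7%) against WT, and 1 for G12D/E2-KO against E2-KO (5.62%). It called 0 for G12D/E2-KO against G12D (2.77%), for the interaction (0.451%), for T2 (0.0467%) and for T3 (0.148%) against T1. The fitted changes leaned upward, with medians of 0.14, 0.10 and 0.06 on the log2 scale for E2-KO, G12D and G12D/E2-KO against WT, beside 0.00, -0.01 and 0.01 over all genes. All 3 libraries were above all 3 WT libraries for 23 of 84 members in E2-KO (15.7% of all genes), 4 in G12D (7.28%) and 4 in G12D/E2-KO (14.8%). A p that misses the threshold does not show that the levels were equal.

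Among single genes the most abundant large-subunit members included Rpl32 (8718 CPM ± 1067, SD, n = 12) and Rpl13 (7913 CPM ± 662). Of the small subunit they were Rps19 (8770.3 CPM ± 1049), needed for 18S rRNA maturation, Rps23 (6793 CPM ± 778) and Rps14 (6409 CPM ± 746). Counts are 3′ UMI counts with no length scaling, and a level also depends on how many reads could be assigned to the gene alone. The lowest small-subunit members were Rps27 (112 CPM ± 26.7), Rps12 (115 CPM ± 49.7) and Rps28 (1034 CPM ± 274). For Rps27, Rps12 and the X-linked Rpl10, which joins the 60S subunit last, every 50-base word of the last 300 bases of the transcript also occurs in another annotated gene. Their levels are therefore uncertain. The near absent members were the paralogs Rpl3l (1.11 CPM), Rpl39l (1.54 CPM) and Rpl10l (9.43 CPM), known from muscle or testis.

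Of the 7 paralogs, Rpl22l1, Rps27l and Rpl6l (454 to 861 CPM) were above 100 CPM in every library, and Rpl7l1 was at 37.0 to 77.9 CPM. Rpl22l1 made up 57.5% ± 3.74 (SD, n = 12) of the UMIs of Rpl22 and Rpl22l1 together, with 67.3% ± 3.51 in late GN and 63.8% ± 2.85 in GMP/early GN against 52.1% ± 4.52 in EryP/early Ery. In all cells it stood at 1815, 2230.0 and 2023 CPM in WT and 2842, 2943 and 2299 CPM in E2-KO, with no overlap. Its fitted log2 change was 0.39 ± 0.12 (SE, edgeR adjusted p = 0.157). Rps27l, a p53 target, was at 1013, 1082 and 979 CPM in WT, 1258, 1258 and 1260.3 CPM in E2-KO. It was at 713, 998 and 858 CPM in G12D and at 816, 1126 and 1060.1 CPM in the double mutant. The 3 E2-KO libraries were above all others, but the log2 change against WT, 0.29 ± 0.11 (SE), had an adjusted p of 0.255. Rpl10l was at 7.19, 7.02 and 7.94 CPM in WT and 11.4, 11.7 and 13.4 CPM in E2-KO, close to 2% of Rpl10 in every genotype (1.99% ± 0.169 of the pair).

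The makeup of the ribosomal protein mRNA pool also differed between classes, described here over 79 members above 100 CPM as the share of ribosomal protein UMIs. From the lowest to the highest of the 7 tested classes it varied 1.31-fold in the median member and more than 1.5-fold in 21. Rps2, which lies at the mRNA entry of the 40S subunit, varied 2.57-fold, Rpl12 2.23-fold and the stalk gene Rplp1 2.22-fold. By class mean each was highest in EryP/early Ery and lowest in late GN. Single libraries overlapped: their lowest EryP/early Ery library was at 0.780, 0.831 and 1.12% of ribosomal protein UMIs. The highest library of another class was at 1.37, 1.12 and 1.85%. Rplp1 was at 5017 CPM ± 902 in EryP/early Ery and 508 CPM ± 197 in late GN (SD, n = 12), where its lowest and highest library were at 324 and 868 CPM. Rps9 went the other way, with 2.84% of ribosomal protein UMIs in late GN against 1.79% in HSC/MPP, the next highest class, and the lowest late GN library (2.28%) exceeded the highest library of the other 6 classes (1.96%). Rpl3, next to the peptidyl transferase centre, made up 1.66% in HSC/MPP and 0.836% in late GN.

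In late GN every mutant library had a higher ribosomal protein share than every WT library. The share there was 6.17, 6.23 and 5.73% in WT, 8.41, 8.67 and 9.66% in E2-KO, 7.17, 6.44 and 7.70% in G12D, with 7.02, 9.20 and 12.3% in G12D/E2-KO, in order of time. The means were 6.04% ± 0.273 in WT, 8.91% ± 0.658 in E2-KO, 7.10% ± 0.630 in G12D, with 9.50% ± 2.65 in G12D/E2-KO (SD, n = 3). E2-KO and G12D did not overlap each other, while G12D/E2-KO ran from within the G12D range at T1 to beyond E2-KO at T3. The libraries held 336 to 1187 late GN cells each.

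Of 82 members tested in late GN, 6 rose in E2-KO (7.32%; 1.74% of all genes passed in either direction), 0 in G12D (0.123%) and 11 in G12D/E2-KO (13.4%; 3.54%), and none fell. Without time point as a factor 2 members passed in E2-KO (1.2% of all genes) and 6 in G12D/E2-KO (2.31%), and with cells as deposited 2 (1.05%) and 7 (2.09%). For G12D against WT edgeR gave 11 members an unadjusted p under 0.05 (4.34% of all genes), and DESeq2 called 2 (0.319%). The median log2 change was 0.44, 0.16 and 0.41 for E2-KO, G12D and G12D/E2-KO, beside 0.00, 0.00 and 0.02 over all genes. An unadjusted p under 0.05 was reached by 61 members in E2-KO (17.3% of all genes) and 53 in G12D/E2-KO (19.9%). All 3 mutant libraries were above all WT libraries for 71 members in E2-KO (17.9% of all genes), 29 in G12D (7.43%) and 55 in G12D/E2-KO (17.6%). No member passed for the interaction of the alleles (0.0561% of all genes; edgeR gave 3 an unadjusted p under 0.05, as for 3.22% of all genes, and DESeq2 called 0, with 0.101% of all genes), and its median was -0.20. The 2 members not tested in late GN were too low there.

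**Figure D2:**
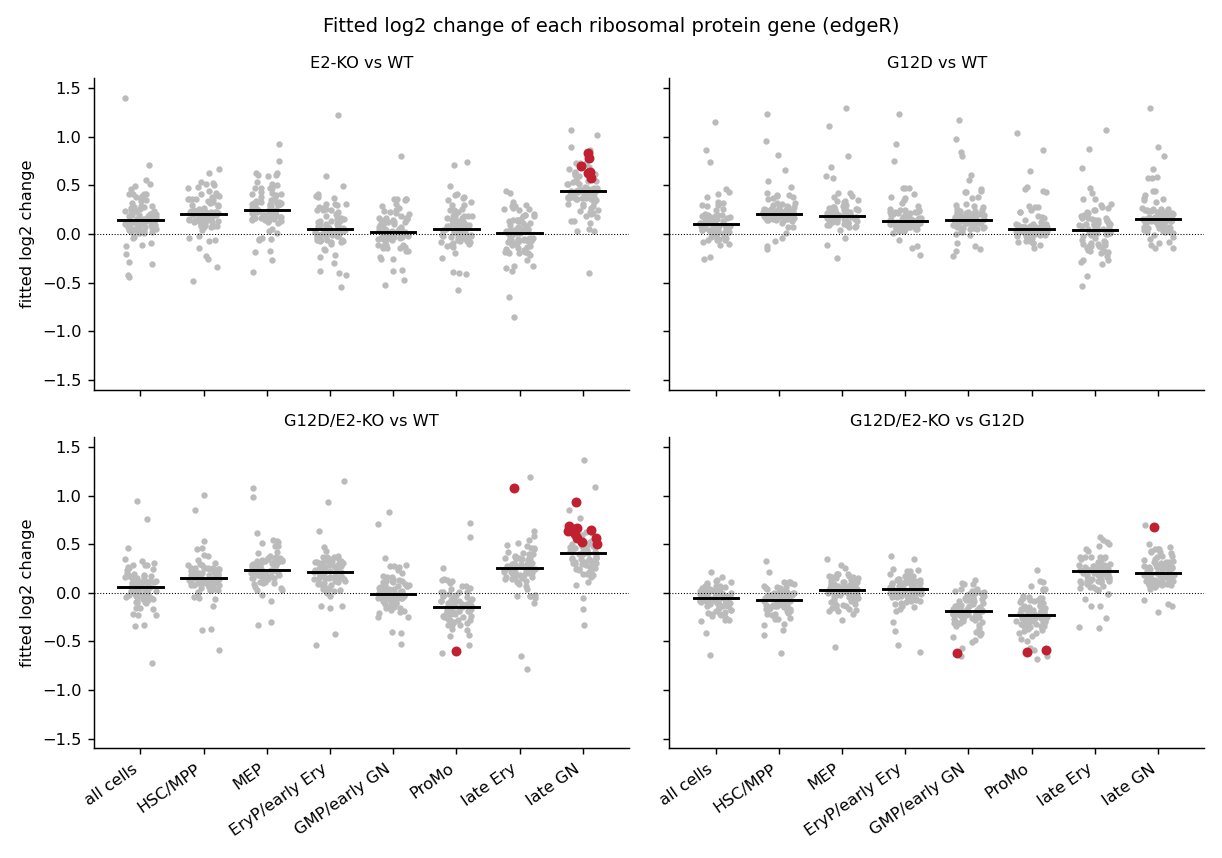
Fitted log2 change (vertical axis) of each ribosomal protein gene in all cells and in 7 classes (horizontal axis) for 4 contrasts; grey points did not pass the test, red points did (edgeR adjusted p under 0.05) and the black bar is the median member. The late GN medians stand at 0.44 for E2-KO and 0.41 for G12D/E2-KO against WT, and the red points above 0 are in late GN except for Rpl9 in late Ery.

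Rpl39, a small protein of the exit tunnel, was at 710.2, 881 and 724 CPM in WT, 1288, 1319 and 1875 CPM in E2-KO. It was at 1030.5, 879 and 865 CPM in G12D and at 967, 1658 and 1592 CPM in the double mutant. Its log2 change was 0.83 ± 0.17 in E2-KO (SE, adjusted p = 0.0125) and 0.64 ± 0.17 in G12D/E2-KO (adjusted p = 0.044). All E2-KO and G12D/E2-KO libraries were above WT, and of these G12D/E2-KO T1 alone fell within the G12D range. Rps28, of the 40S subunit near the mRNA exit, was at 194, 242 and 212 CPM in WT and 386, 357 and 451 CPM in E2-KO, a log2 change of 0.78 ± 0.19 (adjusted p = 0.0463). In G12D/E2-KO it was at 210.3, 564 and 384 CPM, which overlapped WT at T1. Rps18, of the 40S head, was at 912, 1049.9 and 884 CPM in WT, 1474, 1482 and 1655 CPM in E2-KO. It was at 1229, 1209.7 and 1266 CPM in G12D and at 1155, 1762 and 2057 CPM in the double mutant. It rose by 0.58 ± 0.14 in E2-KO and 0.57 ± 0.14 in G12D/E2-KO on the log2 scale (adjusted p = 0.0398 and 0.0302), with every mutant library above WT.

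Of the 4 X-linked members, Rpl39, Rps4x and Rpl36a passed in both Ezh2-deleted genotypes. Rps4x was at 1025, 948 and 821 CPM in WT, 1530.4, 1624 and 1559 CPM in E2-KO, with 1263, 1537 and 2442 CPM in G12D/E2-KO. Rpl36a was at 479, 460.4 and 442 CPM in WT, 724, 726 and 1016 CPM in E2-KO, with 545, 922 and 1104 CPM in G12D/E2-KO. For both genes no E2-KO or G12D/E2-KO library overlapped WT, and the log2 changes lay between 0.64 and 0.70 (SE 0.16, adjusted p from 0.0222 to 0.0363). The fourth, Rpl10, was at 86.3, 92.1 and 80.6 CPM in WT, 146, 124 and 178 CPM in E2-KO, with 52.4, 172 and 230.4 CPM in G12D/E2-KO and did not pass (adjusted p = 0.335 and 0.535). Sex was not the same in all libraries, and with the 3 Xist-high libraries as a covariate 23 members passed in E2-KO (3% of all genes) and 9 in G12D/E2-KO (5.62%). The Xist-high libraries are all of T3, and G12D/E2-KO T3 is the only T3 library outside them. With time point in the model, that library alone sets the T3 term and in effect does not enter the genotype contrasts. The covariate fit therefore cannot part sex from leaving out G12D/E2-KO T3. Rpl22, an RNA-binding 60S protein needed in lymphoid development, was at 309, 281 and 264 CPM in WT and 437, 430.2 and 581 CPM in E2-KO (log2 change 0.62 ± 0.16, adjusted p = 0.0415).

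A further 5 large-subunit and 2 small-subunit members passed in G12D/E2-KO and not in E2-KO. The difference between these genotypes passed for 0 of 82 members (0.0225% of all genes; edgeR gave 1 member an unadjusted p under 0.05, as for 4.59% of all genes, and DESeq2 called 0, with 0.0561% of all genes). Rpl6 was at 161, 166 and 151 CPM in WT, 233, 216 and 269 CPM in E2-KO. It was at 411, 203 and 289 CPM in G12D and at 431, 259 and 387 CPM in the double mutant, a log2 change of 0.93 ± 0.18 against WT (adjusted p = 0.00631). Rps7, an early 40S assembly protein, was at 585, 516 and 532 CPM in WT and 810.4, 853 and 1474 CPM in G12D/E2-KO (0.69 ± 0.15, adjusted p = 0.0105). Rpl7a was at 106, 124 and 114 CPM in WT and 228, 177 and 229 CPM in G12D/E2-KO (0.67 ± 0.16, adjusted p = 0.0231). For all of these the mutant libraries stood clear of WT, and G12D libraries also stood above WT for Rpl6, Rps7 and Rpl7a. Other calls included the paralog Rpl22l1 (0.56), Rps14 (0.52), whose human counterpart is lost in 5q- syndrome, and Rpl17 (0.50). The stalk genes, which bind the elongation factor GTPases, had log2 changes in E2-KO of 0.17 for Rplp0, 0.63 for Rplp1 and 0.69 for Rplp2, with adjusted p of 0.66, 0.0787 and 0.0549. For Rplp0 the T1 and T2 libraries of E2-KO were above WT (1187 and 1261 CPM against 779 to 952 CPM), and E2-KO T3, at 739 CPM, was below every WT library. Rplp1 rose against G12D, from 383, 324 and 389 CPM to 421, 734 and 868 CPM in G12D/E2-KO (0.68 ± 0.18, adjusted p = 0.0455; 2.5% of all genes passed), a call lost without WT T1, WT T2, E2-KO T1, G12D T1, G12D T2, G12D T3, G12D/E2-KO T2 or G12D/E2-KO T3, without time point as a factor and with cells as deposited.

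Several called genes share 50-base words of their 3′ end with other annotated genes (99.6% in Rps7, 80.5% in Rpl7a, 75.7% in Rps28, 100% in Rpl36a, none in Rpl6), so their levels are uncertain. The number of calls depended on single libraries. Leaving out 1 library in turn gave 0 to 25 calls for E2-KO and 0 to 31 for G12D/E2-KO. E2-KO had 0 calls without WT T2, WT T3, E2-KO T1 or E2-KO T3, 2 without WT T1 or any G12D library, and 11 to 25 without E2-KO T2 or any G12D/E2-KO library. G12D/E2-KO had 0 calls without WT T3, 2 without WT T2, 3 without G12D/E2-KO T2, 4 without WT T1, 6 without E2-KO T1, 7 without G12D T1 or G12D T3, 19 without E2-KO T3 and 31 without G12D/E2-KO T1. No called member changed direction in 593 recomputed values.

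Levels of the late GN markers also differed between genotypes. Their list holds granule protein genes and also S100a8, S100a9 and Cebpe, and its share is called the granule share below. The 10 late GN marker genes, among them the granule protein genes Camp and Ngp, made up 44.1 to 48.1% of late GN UMIs in WT, 38.9 to 42.4% in E2-KO, 41.7 to 43.1% in G12D, with 30.9 to 42.2% in G12D/E2-KO. Camp itself was at 83994 and 84321 CPM in E2-KO T1 and T2, above WT (74918 to 82619 CPM), and at 72232 CPM in E2-KO T3. S100a8 was at 164481 to 187473 CPM in WT and 133385 to 185087 CPM in E2-KO. It was at 152888 to 157253 CPM in G12D and 99929 to 163073 CPM in G12D/E2-KO. Mmp8 was at 52.1 to 142 CPM in WT and 5.83 to 29.7 CPM in E2-KO. Mki67, a gene of dividing cells, was at 158 to 180 CPM in WT and 228 to 266 CPM in E2-KO. In G12D/E2-KO both Mmp8 and Mki67 overlapped WT. The 8 GMP/early GN markers, none at 0, made up 0.143 to 0.218% in WT, 0.226 to 0.353% in E2-KO, 0.182 to 0.202% in G12D, with 0.229 to 0.341% in G12D/E2-KO. The mitochondrial share was 1.57 to 1.93% in WT, 2.06 to 2.71% in E2-KO, 1.74 to 1.77% in G12D, with 1.73 to 3.50% in G12D/E2-KO. The part of these differences in the ribosomal protein share was not tested beyond the comparison that follows. The median number of UMIs per late GN cell was 4487 to 5446 in WT, 5007, 4315 and 3082 in E2-KO, 5053, 4520.0 and 3878 in G12D, with 5463, 3506 and 3109 in G12D/E2-KO, in order of time. E2-KO T2 and T3, G12D T3 and G12D/E2-KO T2 and T3 were below every WT library.

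Late GN cells were therefore also compared within a set range of the granule share. In the cells compared the 10 late GN marker genes made up 45 to 55% of the UMIs outside ribosomal protein genes. Their ribosomal protein share was 4.86, 4.87 and 5.19% in WT and 6.56, 6.11 and 7.93% in E2-KO. It was 5.51, 5.09 and 6.02% in G12D, with 5.61, 6.35 and 7.06% in G12D/E2-KO. E2-KO and G12D/E2-KO still lay above every WT library, and the mean difference from WT was 1.89 percentage points for E2-KO (2.87 in the whole class) and 1.37 for G12D/E2-KO (3.46 in the whole class). These cells still differed in other measures. Their GMP/early GN markers made up 0.0918 to 0.114% of UMIs in WT and 0.121 to 0.161% in E2-KO, and their mitochondrial share was 1.413 to 1.575% in WT and 1.599 to 2.056% in E2-KO, with no overlap in either. In G12D/E2-KO they were at 0.103 to 0.138% and 1.294 to 1.740%, and both overlapped WT. The median number of UMIs per matched cell was 4855 to 5368 in WT, 3252 to 4741 in E2-KO, and 5314, 3222 and 2670.0 in G12D/E2-KO from T1 to T3. In the fit on these cells 12 of 81 members rose for E2-KO (0.842% of all genes passed), 2 for G12D (0.348%) and 10 for G12D/E2-KO (3.98%). At 40 to 45% the G12D/E2-KO libraries (7.18 to 8.33%) overlapped WT (6.92 to 8.14%), and E2-KO (8.42 to 10.2%) did not. At 30 to 40% E2-KO read 11.7 to 13.7% and G12D/E2-KO 10.6 to 12.2% against 11.1 to 11.4% in WT. The bin from 50 to 55% held 17 cells in G12D/E2-KO T3.

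**Figure D3:**
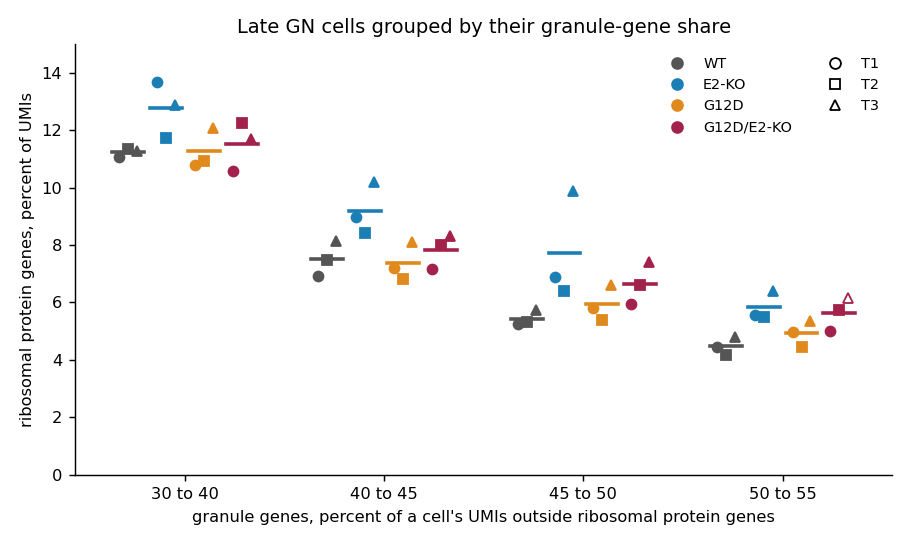
Share of UMIs from ribosomal protein genes (vertical axis, percent) in late GN cells grouped by the granule share of each cell. The horizontal axis, labelled granule genes, gives the late GN marker genes as percent of UMIs outside ribosomal protein genes. Points are libraries, bars are means over 3 libraries and the open point has under 20 cells. In each bin all E2-KO points lie above all WT points (11.7 to 13.7% against 11.1 to 11.4% at 30 to 40%), while G12D/E2-KO overlaps WT in the 2 bins under 45%.

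In the other 6 classes 5 calls were made over the 5 contrasts between genotypes, all described below, and the count was higher in some other settings. Without the filter on low counts 1 to 7 members passed in each of these classes for G12D/E2-KO against WT, where 0.528 to 4.87% of all genes passed. With the Xist-high libraries as a covariate, 11 of 81 members rose in MEP (1.63% of all genes passed) for G12D/E2-KO against WT, and 12 of 83 rose and 1 fell in EryP/early Ery (8.03%). In effect that fit left G12D/E2-KO T3 out of the contrast. In MEP the share was 36.1, 36.1 and 38.4% in WT and 39.0, 38.9 and 42.6% in E2-KO, with no overlap, and 17 of 81 members had all E2-KO libraries above WT (5.44% of all genes), but none passed the test with the filter and without the covariate (0.227% of all genes; 4 members at an unadjusted p under 0.05 by edgeR, as for 9.85% of all genes). In EryP/early Ery it was 33.2, 33.4 and 36.6% in WT and 36.9, 38.7 and 37.4% in G12D/E2-KO, again without overlap. There 24 of 83 members had an unadjusted p under 0.05 (18.8% of all genes), with a median log2 change of 0.21 and none passing in the fit with the filter and without the covariate (3.02% of all genes). HSC/MPP medians were 0.20, 0.20 and 0.16 for E2-KO, G12D and G12D/E2-KO against WT, with 0 members passing by edgeR (0.192, 0.168 and 0.722% of all genes). There 6, 11 and 4 members had an unadjusted p under 0.05 (9.49, 5.17 and 12.5% of all genes). In GMP/early GN, which holds the cells that precede late GN, the medians were 0.02, 0.15 and -0.01. Whether the change differed between classes was not tested.

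In ProMo the members leaned downward in G12D/E2-KO. The share was 29.1, 30.7 and 27.4% there, 31.2, 29.4 and 32.6% in WT and 32.7, 30.7 and 31.6% in G12D, with median log2 changes of -0.14 against WT and -0.23 against G12D. With the Xist-high libraries as a covariate these medians were -0.02 and -0.09, and 1 member was called against each. That fit in effect left G12D/E2-KO T3 out of both contrasts. All 3 G12D/E2-KO libraries were below all G12D libraries for 27 of 82 members (4.94% of all genes) and below all WT libraries for 20 (7.83%). The genes that passed were Rpl4, which lines the exit tunnel, and Rpl3. Rpl4 was at 4055, 3556 and 3759.8 CPM in WT, 2930.2, 3655 and 2053 CPM in E2-KO. It was at 3960.5, 3973 and 3295 CPM in G12D and at 2847, 2517 and 2577 CPM in the double mutant. It fell by 0.60 on the log2 scale against WT (SE 0.16, adjusted p = 0.03; 2.69% of all genes passed) and by 0.61 against G12D (adjusted p = 0.0293; 2.66%). Rpl3 was at 4358, 4215 and 3774 CPM in G12D, against 3433, 2832 and 2656 CPM in G12D/E2-KO, and fell by 0.58 (SE 0.16, adjusted p = 0.0384), a call lost when WT T1, WT T2, E2-KO T1, G12D/E2-KO T2, G12D/E2-KO T3 or any of the 3 G12D libraries was left out. The calls of Rpl4 and Rpl3 against G12D, in ProMo and in GMP/early GN, were all lost when time point was left out of the model, and also with cells as deposited.

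In GMP/early GN, Rpl4 stood at 3907, 3414 and 3555 CPM in G12D, against 2608, 2276 and 2715 CPM in G12D/E2-KO, and fell by 0.62 against G12D (SE 0.16, adjusted p = 0.0312; 3.86% of all genes passed). Its change in the other classes of that contrast was -0.39 in HSC/MPP, -0.30 in EryP/early Ery, -0.28 in MEP, -0.13 in late Ery and -0.12 in late GN, none passing. The calls of Rpl4 against G12D in ProMo and GMP/early GN were lost without any single G12D library or without G12D/E2-KO T2, that in GMP/early GN also without G12D/E2-KO T1, and the call against WT without WT T1, WT T3, G12D T1, G12D T2 or G12D/E2-KO T2. In late Ery 1 of 81 members passed for G12D/E2-KO against WT (1.37% of all genes): Rpl9, of the 60S stalk base, at 162, 89.5 and 137 CPM in WT and 452, 198 and 182 CPM in G12D/E2-KO (1.07 ± 0.24, adjusted p = 0.0167). That call was lost without WT T1, WT T3, G12D/E2-KO T1 or G12D/E2-KO T2, and, like that of Rpl4 against WT in ProMo, without time point in the model, and G12D/E2-KO T1 was the highest of the 12 libraries for this gene there.

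Some members stood apart in single libraries. For 81 members above 20 CPM in every library, the share of ribosomal protein UMIs was expressed as a log2 deviation from the mean over 12 libraries. Of the sum of squares of these deviations 26.9% went with genotype (3 degrees of freedom), 27.2% with time point (2) and 45.9% with neither (6). A factor takes up a part by its degrees of freedom alone, and the part of genotype was near that level. A first pattern, with 42.2% of the variance, set G12D T1 and G12D/E2-KO T1 apart, and a second, with 36.6%, set E2-KO T3 and G12D/E2-KO T2 apart. These pairs were chosen after the values were seen, so their counts are descriptions.

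In G12D T1 and G12D/E2-KO T1, the libraries with shared cells, 3 members were above all 10 other libraries (3.7% of members against 4.6% of 3671 other genes) and 10 below (12.3% against 16.4%). Rpl23a, at the exit of the peptide tunnel, was at 877 and 729.9 CPM in these 2 libraries against 152 to 550.4 CPM in the others. Rpl9 was at 969 and 919 CPM against 294 to 679.9 CPM, and Rpl6 at 1552 and 1240.5 CPM against 595 to 989 CPM. On the low side Rps12 was at 52.5 and 37.7 CPM against 94.3 to 224 CPM, and Rpl10 at 259 and 187 CPM against 363 to 616 CPM. Of the 50-base words in the last 300 bases of the transcript, all occur in another annotated gene for Rps12 and Rpl10, 87.3% for Rpl23a, 66.5% for Rpl9 and none for Rpl6. The part of read assignment in this pattern was not tested. Rpl6 and Rpl7a, called in late GN for G12D/E2-KO against WT, had log2 deviations over all cells of 0.94 and 0.40 in G12D T1. In G12D/E2-KO T1 they were at 0.81 and 0.45. Rps14, called in the same contrast, was at -0.08 in G12D T1 and -0.01 in G12D/E2-KO T1. The part of this pattern in these calls was not tested.

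**Figure D4:**
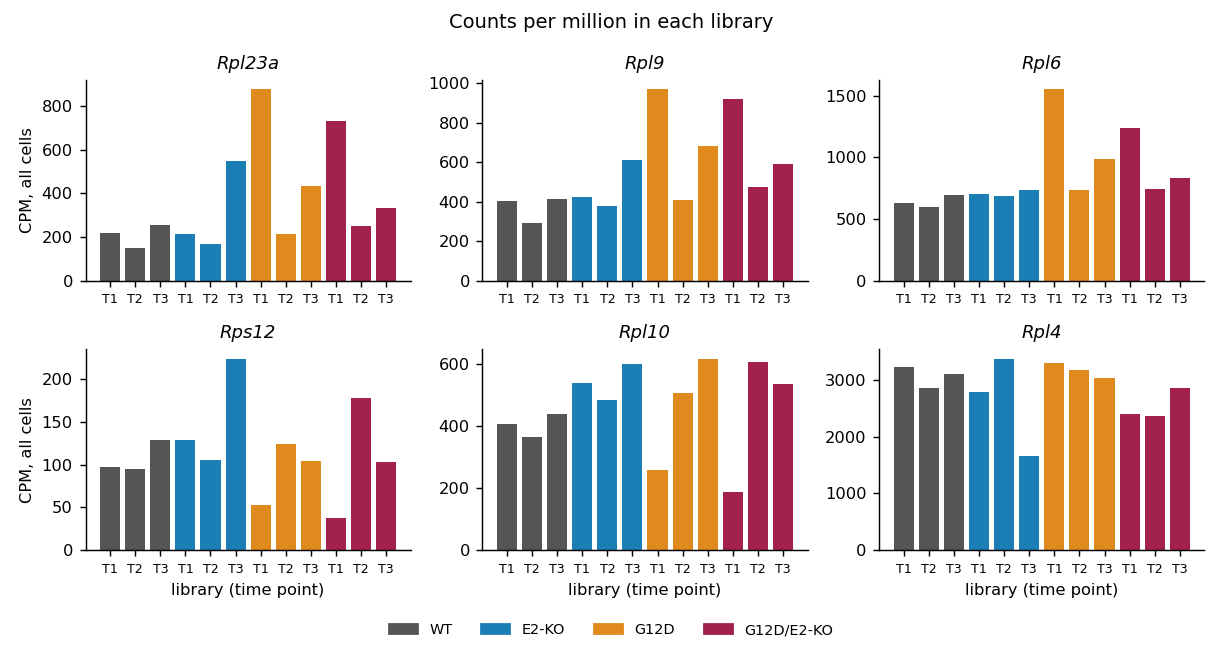
CPM (vertical axes, each from 0) in all cells of each library (horizontal axes, T1 to T3 within each genotype by colour) for 6 members. Rpl23a, Rpl9 and Rpl6 are highest and Rps12 and Rpl10 lowest in the T1 libraries of G12D and G12D/E2-KO, and Rpl4 is lowest in E2-KO T3 at 1654 CPM.

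In E2-KO T3 and G12D/E2-KO T2 the deviation followed the length of the coding sequence. Across 80 members with a coding length (genes are not independent and share library and depth) Pearson's r between log2 coding bases and the deviation was -0.695 in E2-KO T3 and -0.680 in G12D/E2-KO T2, against 0.644 in WT T1 and 0.517 in G12D T3. Deviations are centred on the mean over the same libraries, so a negative r in some libraries brings a positive r in others. Over 3496 other genes it had the opposite sign in both libraries, 0.288 and 0.168. The 10 members under 300 coding bases had a median deviation of 0.45 and 0.36 on the log2 scale, and the 8 over 800 bases -0.44 and -0.22. Among the short members, Rpl41, the shortest protein of the ribosome, was at 7997 and 5830.1 CPM against 3469 to 5307 CPM elsewhere, and Rpl37a at 8129 and 7005 CPM against 4007 to 5271 CPM. Among the long members, Rpl4 was at 1654 and 2364 CPM against 2403 to 3374 CPM, and Rplp0 at 2963 and 4515 CPM against 4729.7 to 6127 CPM. In all, 19 members were above every other library in both (23.5% against 3.49% of other genes) and 4 were below (4.94% against 9.89%).

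**Figure D5:**
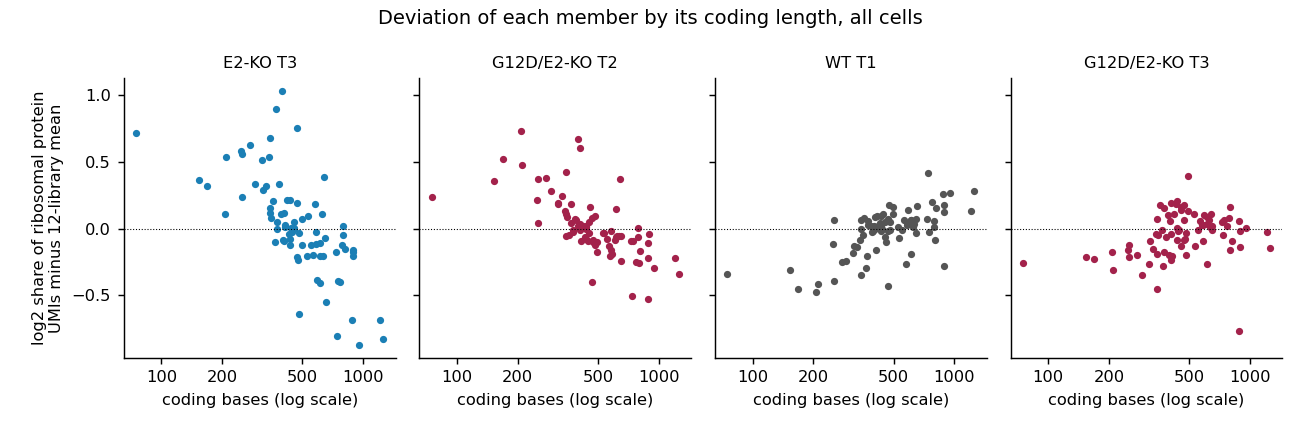
Deviation of each member's log2 share of ribosomal protein UMIs from its mean over 12 libraries (vertical axis) against its coding length in bases (horizontal axis, log scale) in 4 libraries, all cells; each point is a gene. The points slope down in E2-KO T3 (r = -0.695) and G12D/E2-KO T2 (r = -0.680) and up in WT T1 (r = 0.644), with r = 0.264 in G12D/E2-KO T3.

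The slope stood in every class, for example -0.712 and -0.696 in HSC/MPP and -0.679 and -0.704 in late GN. These 2 libraries also had the lowest median UMIs per cell over all cells (3780.5 and 4186 against 5133 to 6975.5), a value whose part in the pattern was not tested. Of the members called against WT in late GN, Rpl39 (153 coding bases) and Rps28 (207 coding bases) were under 300 coding bases. The rest were longer, up to Rps4x (789), Rpl7a (798) and Rpl6 (888). Rpl39, Rpl36a, Rpl22 and Rps18, all called in E2-KO, were among the 19 members above every other library in both. The other E2-KO calls, Rps4x and Rps28, were not. Rpl39, Rpl36a and Rps18 were also called in G12D/E2-KO, whose other calls were not on that list. The part of this pattern in the late GN calls was not tested. Rpl4 (1257) and Rpl3 (1209), which fell in G12D/E2-KO in ProMo, are the longest core members. There r was -0.701 in G12D/E2-KO T2, and the part of this pattern in their calls was not tested. Without E2-KO T3 and G12D/E2-KO T2 the fit called 1 member in late GN for E2-KO against WT (0.828% of all genes) and 4 for G12D/E2-KO (1.62%).

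Other genes related to translation were tested in the same fits. A list of 21 translation factors and other genes with 5′ TOP mRNAs had 1 call in late GN, Tpt1, which is not a translation factor. It rose in both E2-KO (1.74% of all genes passed) and G12D/E2-KO (3.54%). Tpt1 was at 625, 748 and 648 CPM in WT, 1062, 1058 and 1376 CPM in E2-KO, with 753, 1192 and 1583 CPM in G12D/E2-KO. Its log2 changes were 0.66 ± 0.15 and 0.54 ± 0.15 (edgeR adjusted p = 0.0188 and 0.0445). The list medians were 0.14 and 0.25, with Eef1a1, which brings aminoacyl-tRNA to the ribosome, at 0.36 and 0.32 and not passing. Of 34 ribosome biogenesis genes tested there, 0 passed for E2-KO (edgeR; 2 at an unadjusted p under 0.05) and 1 fell in G12D/E2-KO, Nob1, which cuts the precursor of 18S rRNA to its mature end, by 1.55. The list medians were -0.18 and -0.27. Nob1 was at 4.53 to 6.78 CPM in WT and 1.61 to 2.94 CPM in G12D/E2-KO and was named after its values were seen.

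Mitochondrial ribosomal proteins, which serve a separate ribosome, had medians below 0. Over all cells 5 of 77 fell in G12D/E2-KO (Mrpl22, Mrpl37, Mrpl46, Mrpl49 and Mrps36, log2 changes from -0.62 to -0.52), where 5.69% of all genes passed, 33 had an unadjusted p under 0.05 (26.2% of all genes) and the median was -0.29. In late GN 1 of 75, Mrps15, fell in both Ezh2-deleted genotypes, by 0.75 in E2-KO (1.74% of all genes passed) and 0.87 in G12D/E2-KO (3.54%). The list medians there were -0.21 and -0.19. Of 19 regulators such as Eif4ebp1 and Trp53, 0 passed in all cells or late GN for any mutant (edgeR; at most 5 of them at an unadjusted p under 0.05, over all cells in G12D/E2-KO, as for 26.2% of all genes). Of 18 p53 targets tested over all cells, 1 rose in E2-KO (Zmat3; 1.59% of all genes passed) and 4 in G12D/E2-KO (Zmat3, Fas, Perp and Pmaip1; 5.69%), while Rps27l passed in neither. These 4 were low, from 0.666 to 12.7 CPM, and Perp reached 12.7 CPM only in G12D/E2-KO T3. The 4 targets of highest CPM, Bax, Ccng1, Ei24 and Aen, had log2 changes of -0.17, -0.15, -0.05 and -0.03 in G12D/E2-KO and did not pass. Of 19 proliferation genes, Pcna alone passed in late GN, higher in E2-KO (0.78; 1.74% of all genes passed) and G12D/E2-KO (0.75; 3.54%), and Tyms alone over all cells in G12D/E2-KO, where it fell by 0.66 (5.69%).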

How the data were processed

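Single-cell RNA-seq of c-Kit+ bone marrow cells was analysed in 12 libraries. The authors processed each library with Cell Ranger against mm10, removed cells with a high mitochondrial share and doublets scored by Scrublet, and deposited UMI counts per gene and cell, the only unit used. Reads that match several genes are not counted by this tool, which lowers genes with processed copies. All counts were used with no further cell filter and no further doublet call. Groups followed the labels (4 genotypes, 3 time points). Cells that G12D T1 shared with G12D/E2-KO T1 were kept in the latter only. Each cell took the class with its highest marker score (scaled values summed and divided by the square root of the number of markers; at least 1, with a margin of 0.5 over the next, 112 of 113 markers in the tables). UMIs were summed per library, or per library and class, and tested with edgeR 4.0.16 (TMM factors, filterByExpr, robust quasi-likelihood, 6 residual degrees of freedom, R 4.3.3), p-values being adjusted over all genes tested within a contrast. DESeq2 1.42.0, other scalings and filters, clusters in place of gates (scanpy 1.11.5) and left-out libraries were alternatives. The test was checked on simulated data. Coding lengths came from GENCODE vM21 (GRCm38), promoters from RefSeq (GRCm38.p6). Members, gene lists and tests were chosen with earlier results of these data known. Genes were named by rule: calls over all cells, the 3 highest and 3 lowest members of each subunit, paralogs with their parents, stalk, Rpsa and X-linked members, the 3 members called in most classes and, of each other list, up to 4 genes of highest CPM. Other named genes, Rpl4, Rpl9, Rpl23a, Rpl37a and the called genes of the lists among them, were chosen after their values were seen. Depth was 12637000 to 23646000 UMIs per library, and late GN sums held 1362800 UMIs or more. Some results on single members are not reported here.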

Additional observations from a re-analysis of the deposited data

How the results depend on the processing

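Of 23 member values that passed the test, none changed direction in 593 recomputed values, 361 kept the call, 232 lost it and none of the 23 kept it throughout. Of 48 named values over all cells that did not pass, none passed in 1152 recomputed values, whereas of 12 in late GN (Rplp0, Rplp1, Rplp2 and Rpl10) 33 of 312 passed. Counts of called members moved as follows, with those over the 7 classes summed. No cluster was named MEP, so the counts with clusters leave that class out. Clusters placed 597 of 1006 gated MEP cells in EryP/early Ery. Leaving out time point as a factor (no replicate block) gave 2 calls for E2-KO against WT (6 reported), all in late GN, 6 for G12D/E2-KO against WT (13 reported, 11 of them in late GN, where 6 were left) and 0 for G12D/E2-KO against G12D (4 reported), and changed no count over all cells. Time point was in the reported fit as a condition of the design, with no shared animals behind it in the labels, and 10 of 18 pairs of same-time libraries had a correlation of deviations over 0.1 (range -0.374 to 0.644). The highest was that of G12D T1 with G12D/E2-KO T1, the libraries with shared cells. Pairs of libraries differing in both genotype and time point ranged from -0.477 to 0.571. Over all cells, where 0 passed in each contrast, 1 passed for E2-KO with only the 2 genotypes fitted, 1 for G12D with DESeq2, 1 for G12D/E2-KO against E2-KO with DESeq2, and for G12D/E2-KO against WT 1 without scaling factors, 2 with DESeq2 and 1 with the Xist-high libraries as a covariate.

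For E2-KO against WT the classes gave 15 calls without scaling factors, 28 without the filter on low counts, 64 with only 2 genotypes, 17 with DESeq2, 2 with cells as deposited, 25 with the Xist covariate, 11 with a stricter gate and 23 with clusters. In late GN alone these were 15, 23, 43, 17, 2, 23, 11 and 23, and 12 at a matched granule share. For G12D (0 reported) they were 1 without scaling, 21 without the filter, 24 with 2 genotypes, 4 with DESeq2 and 2 with the covariate, and 2 in late GN at a matched granule share. For G12D/E2-KO against WT they were 43 without scaling, 41 without the filter, 6 with 2 genotypes, 21 with DESeq2, 37 with the covariate and 24 with clusters. In late GN alone they were 40, 25, 5 and 18, 7 with cells as deposited and 23 with clusters. For G12D/E2-KO against G12D they were 12 without the filter and 0 with cells as deposited. Against E2-KO (0 reported) 6 passed without the filter and 1 with the covariate, for the interaction 1 without the filter, and for T2 against T1 24 without the filter. For T3 against T1 8 passed without the filter and 1 with DESeq2. With the covariate T3 rests on G12D/E2-KO T3 alone, so no count is given. The cause of these moves was not tested.

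The matched granule share and the next 2 alternatives were chosen after seeing the data. Without the T1 libraries the classes gave 0 calls for E2-KO, 3 for G12D/E2-KO against WT (2 in late GN) and 1 against G12D. Without E2-KO T3 and G12D/E2-KO T2 they gave 1 for E2-KO, all in late GN, 6 for G12D/E2-KO against WT (4 in late GN) and 1 against E2-KO. Fewer libraries entered these fits. Leaving out 1 library in turn gave 0 to 27 calls over the classes for E2-KO, 0 to 2 for G12D, 0 to 43 for G12D/E2-KO against WT, 0 to 14 against G12D, 0 to 2 against E2-KO and for the interaction, 0 to 5 for T2 against T1 and 0 to 1 for T3 against T1. In late GN the ranges were 0 to 25 for E2-KO and 0 to 31 for G12D/E2-KO, and over all cells 0 to 1 for G12D/E2-KO against WT. Adjusted p ranged from 3.47e-06 to 0.0954 for Rpl6 in late GN, 7.67e-05 to 0.131 for Rpl39 (E2-KO) and 0.0133 to 0.31 for Rpl4 in ProMo against WT.

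The E2-KO minus WT share over all cells (2.59 percentage points reported) was 0.982 with class shares held fixed. It was 1.08 so with clusters and 0.959 so with the stricter gate. It was 1.68 with haemoglobin genes and the late GN marker genes left out and 3.99 as a mean over cells. For G12D the difference over all cells was 1.26, and 0.689 with cells as deposited. In late GN it was 2.87 for E2-KO, 3.52 with clusters and 1.89 at a matched granule share, where G12D moved from 1.06 to 0.569 and G12D/E2-KO from 3.46 to 1.37. In late GN a library's sum held as few as 1362800 UMIs, and 2 of the 84 members were too low there to be tested.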
